A study of Bos taurus with 12 samples.

Results

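The genes described here make cholesterol, fatty acids and triglycerides, or control that synthesis. They were chosen by name as a list of 45: the sterol-sensing regulators, the enzymes that lead to cholesterol, the enzymes that make, lengthen, desaturate and activate fatty acids, and those that build triglycerides and coat lipid droplets. A gene was kept when a probe set with its single symbol was above 4 on the log2 scale on at least 3 of the 12 arrays, and each gene was read from its probe set with the highest mean. This kept 35 of the 45, out of 6781 genes kept in all: 4 regulators, 15 sterol genes, 11 fatty acid genes and 5 triglyceride and droplet genes. IDI1, SC5D, HSD17B7, FADS1 and ACSL4 have no named probe set in the annotation used, and SCAP, ACACA, AGPAT2, LPIN1 and THRSP were below the filter.

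Endometrium was sampled by biopsy from Simmental heifers a cycle ahead of embryo transfer, before any embryo had been placed. CDd14 and CDd7 are biopsies of cycle days 14 and 7 from heifers that later delivered a calf. NPd14 and NPd7 are biopsies of the same days from heifers that returned to heat without a pregnancy. The 3 arrays of a group were hybridised with 3 pools of biopsy RNA. The sources used here do not say how many heifers a pool holds, nor whether the same heifers were sampled on both days, so the p-values measure the spread between pools. In whole tissue, fewer cells of a type and less RNA per cell cannot be told apart.

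Cells make cholesterol from acetyl-CoA through mevalonate and squalene, and fatty acids from acetyl-CoA through malonyl-CoA. Both routes are driven by the membrane-bound transcription factors SREBP-1 and SREBP-2, products of SREBF1 and SREBF2, which the escort protein SCAP carries from the endoplasmic reticulum to be cut. INSIG1 and INSIG2 hold them back when sterols are plentiful. In ruminants acetate is a main carbon source for fatty acids, and the uterine epithelium of ruminants is known to store lipid droplets during the progesterone-dominated part of the cycle.

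**Figure D1:**
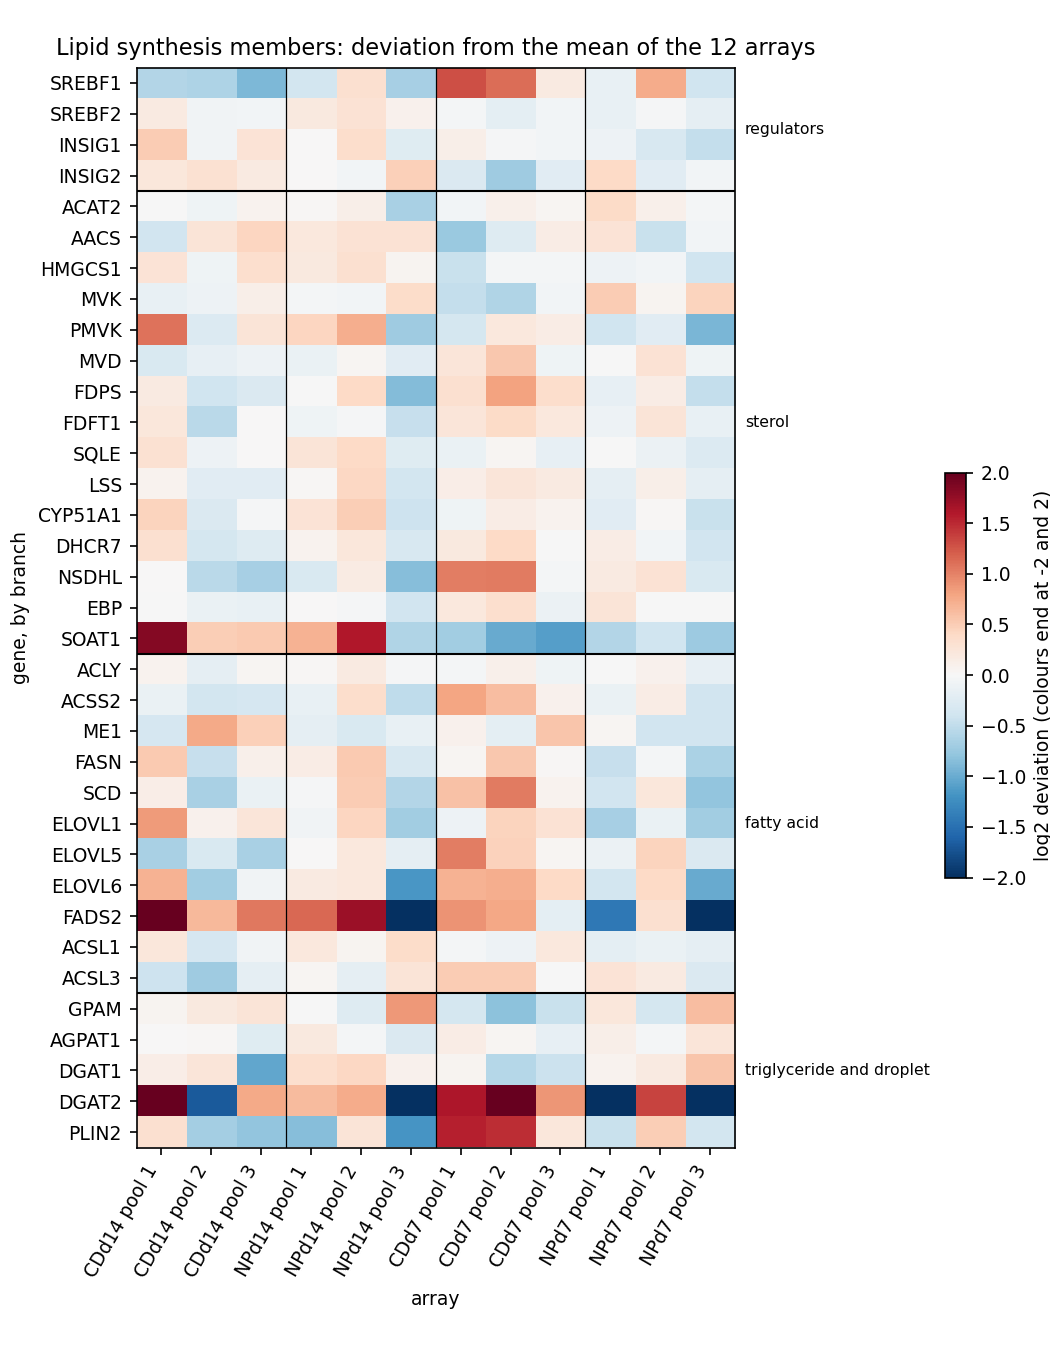
Colour shows how far each of the 35 genes (rows, by branch) lay from its own mean over the 12 arrays (columns, by group), on the log2 scale. Most sterol rows are pale, while FADS2 and DGAT2 reach the ends of the colour scale, which is capped at -2 and 2.

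The arrays had medians between 4.89 and 5.06 over all probe sets, on the log2 scale, and correlated within groups at 0.921 to 0.988 across probe sets. Epithelial markers were clearly measured (14 of 16 kept). Of the endothelial markers 1 of 7 was above the filter, and of the smooth muscle markers 1 of 6. Of the adipocyte list, 2 of 8 were kept, ADIPOR2 and LIPE, which other cells also express. The defining adipocyte genes ADIPOQ, LEP, CIDEC, FABP4 and PPARG were between 1.98 and 2.79 on every array. ADIPOR2, an adiponectin receptor, lay between 6.51 and 7.84 in CDd14, 5.64 and 9.42 in NPd14, 10.53 and 11.49 in CDd7, and 8.32 and 10.37 in NPd7.

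The stromal fibroblast markers were lower in CDd7 on all 12 measured genes, of which 8 fell, with summed linear levels of 1667 to 3558 in CDd7 pools and 7472 to 19814 in NPd7 pools. At day 14 they summed to 2759 to 5478 in CDd14 and 5441 to 7705 in NPd14. Epithelial markers summed to 72063 to 81554 in CDd7 and 86706 to 92063 in NPd7. EPCAM, at 15.25 to 15.5 on the log2 scale over the 12 arrays, weighs most in these sums. Gene by gene, 0 of 14 rose and 0 fell, with 4 log2 differences above 0 and 10 below (median -0.13). Cell cycle genes were above 0 on 7 of 7 in CDd7 over NPd7, of which 3 rose (median log2 difference 1.84), and T and NK cell markers were below 0 on 8 of 8, of which 3 fell (median -1.21). Of all genes, 1.46% rose and 2.02% fell in this comparison. Without CDd7 pool 2, NPd7 pool 1 or NPd7 pool 3 the share called was 0%, and with the compared groups alone it was 0.0295%. CLDN5, an endothelial marker, rose with a log2 difference of 2.37, and MYLK, a smooth muscle marker, fell by 3.23. Each was the 1 gene of its list above the filter. CLDN5 lay between 3.21 and 4.75 in NPd7, around the filter, and between 5.78 and 7.21 in CDd7, so the size of its difference is unreliable. The other endothelial markers lay between 1.93 and 3.59 over the 12 arrays, and the other smooth muscle markers between 1.98 and 3.35. The difference between 3' and 5' probe sets of control transcripts, a sign of RNA integrity, averaged 1.97 ± 0.11 in CDd14 and 2.32 ± 0.17 in NPd14 (log2, SD, n = 3 each). It averaged 1.65 ± 0.20 in CDd7 and 1.94 ± 0.19 in NPd7. The same difference on bacterial transcripts added to the samples averaged 5.13 ± 0.12 in CDd14 and 5.38 ± 0.14 in NPd14, and 4.74 ± 0.07 in CDd7 and 5.06 ± 0.15 in NPd7. Those added transcripts are not from the tissue, and their difference went the same way between groups as that of the bovine controls. The part of tissue composition, RNA integrity, and RNA amplification and labelling in the results below was not tested.

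Several genes near the start and middle of the pathways varied little. SREBF2, which encodes the main driver of cholesterol synthesis, was between 7.67 and 8.15 on the log2 scale over all 12 arrays. ACLY, which splits citrate into cytosolic acetyl-CoA, was between 11.78 and 12.13. SQLE, squalene epoxidase, spanned 0.68 on the log2 scale, LSS, which closes the sterol ring system, 0.77, and HMGCS1, which makes the precursor of mevalonate, 0.79. The median span was 1.18 over the 35 genes and 1.04 over all 6781 genes. The widest spans belonged to DGAT2, which adds the last fatty acid to a triglyceride, at 7.46, and to FADS2, a desaturase of polyunsaturated fatty acids, at 7.07.

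Within groups, the pools differed in the same direction for most of the genes. In NPd14, pool 3 was the lowest of its group for 28 of the 35 genes (80.0%), among them 13 of 15 sterol genes, and for 44.7% of all genes. In NPd7, pool 3 was the lowest for 25 of 35 (71.4%, against 34.8% of all genes). In CDd14, pool 2 was the lowest for 22 of 35 (62.9%, against 35.7%), and in CDd7, pool 3 for 20 of 35 (57.1%, against 32.8%). The branches differed in CDd7: 7 of 15 sterol genes were lowest in pool 1 and 7 in pool 3, while 8 of 11 fatty acid genes were lowest in pool 3. The highest pool of each group was CDd14 pool 1 (23 of 35, 65.7%, against 39.0% of all genes), NPd14 pool 2 (26, 74.3%, against 43.1%), CDd7 pool 2 (19, 54.3%, against 30.5%) and NPd7 pool 2 (22, 62.9%, against 36.7%).

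DGAT2 and FADS2 show this spread most clearly. DGAT2 had log2 values of 9.88, 5.95 and 8.38 in CDd14, 8.25, 8.37 and 2.76 in NPd14, 9.24, 10.22 and 8.50 in CDd7, and 5.48, 8.97 and 5.45 in NPd7. FADS2 had 10.94, 9.17 and 9.58 in CDd14, 9.66, 10.22 and 3.87 in NPd14, 9.42, 9.28 and 8.32 in CDd7, and 7.08, 8.84 and 5.83 in NPd7. NPd14 pool 3 was below the filter for both genes, and their standard errors of 1.59 and 1.45 left no group difference past the threshold.

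**Figure D2:**
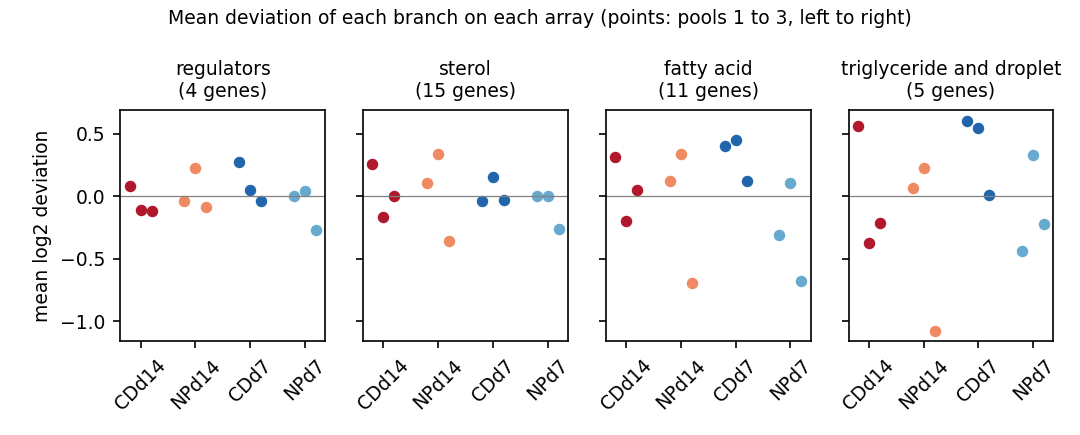
Each point is an array: the mean log2 deviation of a branch's genes from their 12-array means, with groups along the horizontal axis. The sterol points span -0.36 to 0.34, and the lowest point, -1.08, is NPd14 pool 3 in the triglyceride and droplet branch. DGAT2, at 2.76 in that pool, weighs most in this mean of 5 genes. PLIN2 and AGPAT1 were also at their lowest of the 12 arrays there, while GPAM, at 9.42, was at its highest.

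The first comparison asks whether lipid synthesis transcripts already differed at day 7 by the later outcome. None of the 35 genes passed (limma, Benjamini-Hochberg adjustment over all probe sets, adjusted p under 0.05), where 3.48% of all genes did, 1.46% up and 2.02% down. That share was 0% without CDd7 pool 2, NPd7 pool 1 or NPd7 pool 3, and 12.9% without NPd7 pool 2, where MVK passed. At an unadjusted p under 0.05 there were 7 of 35, against 2062 of 6781 genes. The groups did not overlap for 10 of 35 genes, 6 higher and 4 lower in CDd7, against 35.3% of all genes, 16.7% higher and 18.6% lower.

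Among the regulators, SREBF1, whose product drives the fatty acid genes, had 12.83, 12.65 and 11.72 in CDd7 against 11.38, 12.27 and 11.14 in NPd7, with overlap (log2 difference 0.80 ± 0.37, limma adjusted p = 0.177). Here and below, ± after a difference is the standard error. INSIG2 had 10.95, 10.53 and 11.01 in CDd7 against 11.65, 11.02 and 11.20 in NPd7. Its groups were barely separated, with a difference of -0.46 ± 0.20 (limma adjusted p = 0.164). INSIG1 had 0.32 ± 0.19 (limma adjusted p = 0.271), and SREBF2 0.02 (95% interval -0.23 to 0.27).

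All 11 measured genes of the fatty acid branch had a log2 difference above 0 in CDd7 over NPd7, with a median of 0.58 and a range of 0.02 to 1.76, where 3303 of 6781 genes were above 0 and the median over all genes was -0.01. In the sterol branch 11 of 15 were above 0 (median 0.17). Genes measured on the same arrays are not independent, and the mean deviation of the fatty acid branch was 0.40, 0.45 and 0.12 in CDd7 pools against -0.31, 0.10 and -0.68 in NPd7 pools, so that the lowest CDd7 pool lay next to the highest NPd7 pool.

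SCD, which puts the first double bond into saturated fatty acids, had 12.31, 12.76 and 11.80 in CDd7 against 11.35, 11.96 and 10.94 in NPd7. Its groups overlapped, with a log2 difference of 0.87 ± 0.36 (limma adjusted p = 0.145). FASN, fatty acid synthase, had 10.42, 10.92 and 10.40 in CDd7 against 9.91, 10.34 and 9.74 in NPd7. Its groups did not overlap, by a narrow margin, and the log2 difference was 0.58 ± 0.29 (limma adjusted p = 0.210). ELOVL1, which lengthens very long chains, also did not overlap (0.71 ± 0.30, limma adjusted p = 0.153).

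For ACSL3, which activates long-chain fatty acids, the probe sets gave different sizes. The probe set with the highest mean had 0.29 ± 0.21 (limma adjusted p = 0.373). The other kept probe sets had 1.07 ± 0.26, 2.10-fold, and 1.30 ± 0.39, 2.47-fold, just short of the threshold (limma adjusted p = 0.0517 and 0.0727).

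PLIN2, the coat protein of lipid droplets, had 11.26, 11.19 and 9.94 in CDd7 against 9.26, 10.20 and 9.33 in NPd7. The groups overlapped in CDd7 pool 3, and the log2 difference was 1.19 ± 0.49 (limma adjusted p = 0.138). DGAT2 had the largest difference of the 35, 2.69 with a 95% interval from -0.84 to 6.22.

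Some genes had the opposite sign. MVK, mevalonate kinase, had 7.48, 7.34 and 7.89 in CDd7 against 8.45, 8.00 and 8.39 in NPd7, without overlap. Its log2 difference of -0.71 ± 0.19 had the smallest adjusted p among the chosen probe sets of the 35 (limma adjusted p = 0.0592). The probe set may match more than 1 transcript by its type, and the other kept probe set of MVK had -0.21 ± 0.13 (limma adjusted p = 0.274). That other probe set had group means of 4.03 to 4.24, at the filter, so its size says little. MVK passed when CDd7 pool 3 or NPd7 pool 2 was left out, and was then the 1 gene of the 35 to do so. GPAM, the mitochondrial enzyme that starts glycerolipid synthesis, had -0.71 ± 0.31 (limma adjusted p = 0.154), and DGAT1, the other enzyme of the last triglyceride step, -0.58 ± 0.31 (limma adjusted p = 0.237). Neither overlapped between the groups, while DGAT1 lay near the filter, between 4.22 and 5.81 over the 12 arrays.

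For several sterol enzymes the data set narrow bounds. SQLE differed by 0.05 on the log2 scale (95% interval -0.35 to 0.44), HMGCS1 by 0.01 (-0.36 to 0.39), CYP51A1, the lanosterol demethylase, by 0.26 (-0.30 to 0.82) and LSS by 0.26 (-0.15 to 0.67). The interval lay within a 2-fold difference either way for 10 of 15 sterol genes, 4 of 11 fatty acid genes and 1 of 5 triglyceride and droplet genes. The second kept probe set of HMGCS1 had -0.09 ± 0.27 (limma adjusted p = 0.850). The second kept probe set of FDFT1, squalene synthase, had 1.84 ± 0.71 (limma adjusted p = 0.125), while its main probe set had 0.27 ± 0.21 (limma adjusted p = 0.384). The second probe set was much dimmer, with means of 7.42 in CDd7 and 5.59 in NPd7 against 12.77 and 12.50 on the main one.

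**Figure D3:**
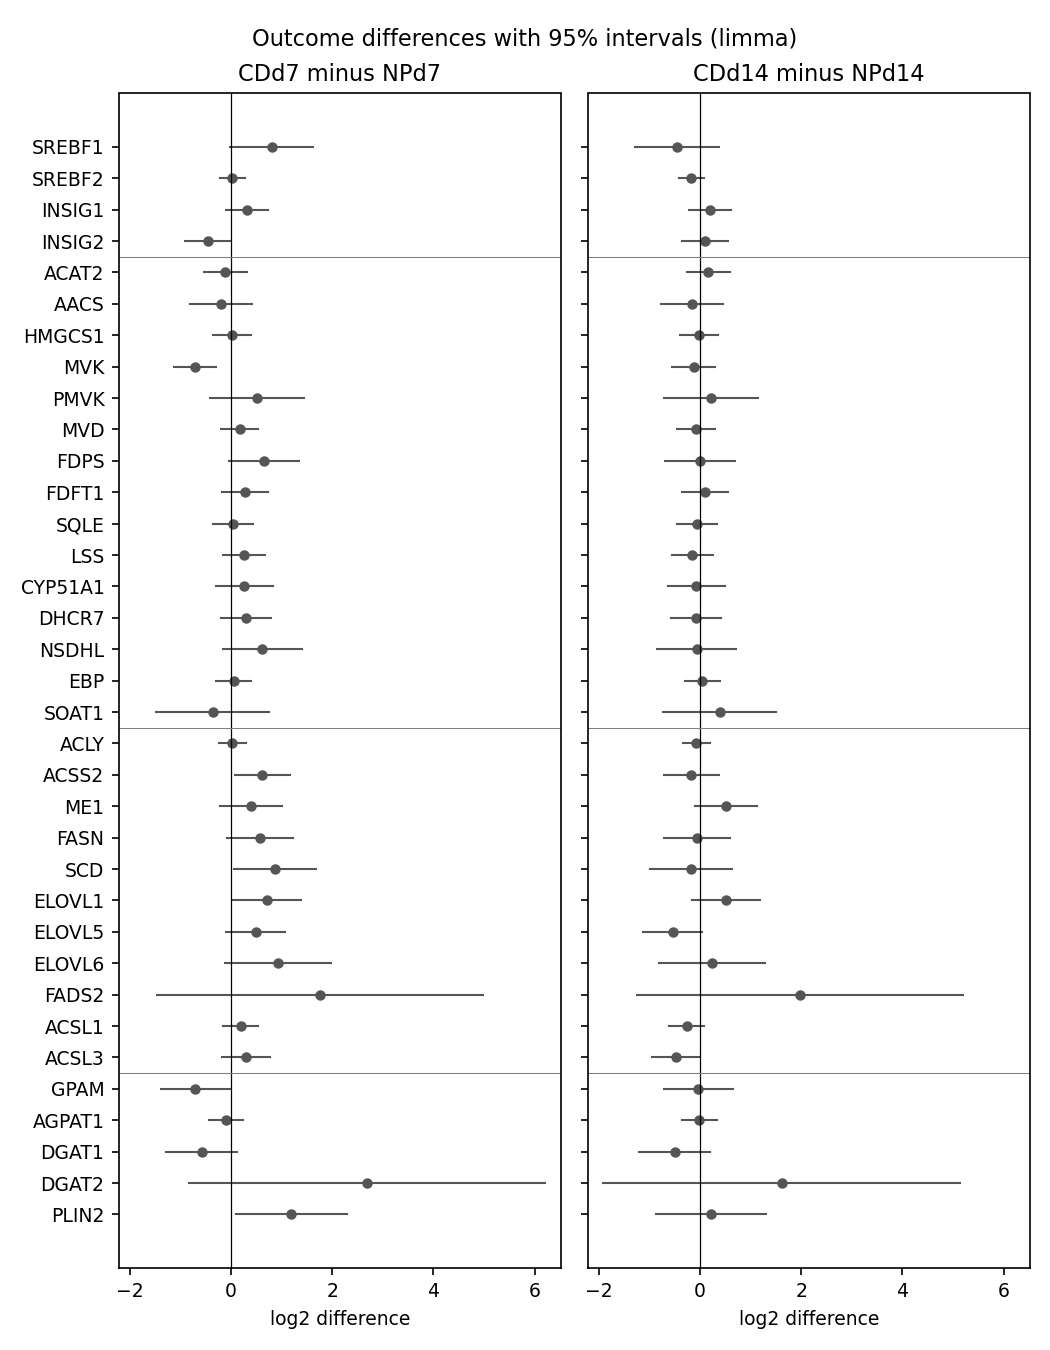
Each point is a gene's log2 difference between outcomes, CDd7 minus NPd7 on the left and CDd14 minus NPd14 on the right, with its 95% interval from limma. Grey lines part the branches; none of the 35 genes passed the threshold on either day, and FADS2 and DGAT2 have the widest intervals.

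THRSP, a nuclear protein that promotes fatty acid synthesis in lipogenic tissue, lay just outside the filter. It had 4.17, 5.28 and 3.51 in CDd7, and between 1.75 and 1.79 on all 9 other arrays, a low level that hardly varied. CDd7 was the 1 group with values above that level, and 2 of its arrays were above 4. When no filter was applied THRSP passed, with a log2 difference of 2.54 ± 0.35 over NPd7 (limma adjusted p = 0.0290) and -2.54 ± 0.35 in CDd14 over CDd7 (limma adjusted p = 0.00716). Its difference between the day effects was -2.53 ± 0.49 (limma adjusted p = 0.265). These sizes are set against a background level and are no measure of a fold. The spread shared by the groups is drawn largely from the 9 arrays at that flat level. The standard errors and p-values therefore understate the spread between CDd7 pools, and no weight is put on these calls. Just inside the filter, the lowest gene kept was DGAT1.

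The same question was asked of day 14. None of the 35 genes passed (limma), against 0.0147% of all genes, and 1 of 35 had an unadjusted p under 0.05, against 430 of 6781. That gene was ACSL3, found at the endoplasmic reticulum and on nascent droplets. ACSL3 had 12.27, 11.97 and 12.51 in CDd14 against 12.73, 12.52 and 12.95 in NPd14, just short of overlap (log2 difference -0.48 ± 0.21, limma adjusted p = 0.675).

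ELOVL5, which lengthens polyunsaturated fatty acids, was the second gene without overlap, with 10.64, 10.99 and 10.64 in CDd14 against 11.30, 11.50 and 11.11 in NPd14 (-0.54 ± 0.26, limma adjusted p = 0.688). Groups did not overlap for 2 of 35 genes, both lower in CDd14, against 10.6% of all genes (4.85% higher, 5.72% lower). The 95% interval lay within a 2-fold difference for 13 of 15 sterol genes and 6 of 11 fatty acid genes. SQLE differed by -0.07 (-0.46 to 0.33), HMGCS1 by -0.02 (-0.39 to 0.36) and FASN by -0.06 (-0.71 to 0.59). SREBF1 differed by -0.46 (-1.28 to 0.37). The second probe sets of HMGCS1 and MVK had the opposite sign to the first, at 0.17 and 0.03, far from the threshold, and that of MVK lay at the filter.

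Between days, in heifers that delivered a calf, 5 of the 35 genes fell and 2 rose by day 14 (limma), 20% of the genes, where 24.1% of all genes changed, 14.2% down and 9.87% up. Fallen were SREBF1 among the regulators, NSDHL in the sterol branch, and ACSS2, ELOVL5 and ACSL3 in the fatty acid branch. Risen were INSIG2 among the regulators and SOAT1 in the sterol branch, and 0 of 5 triglyceride and droplet genes passed. The groups did not overlap for 10 of 35 genes, 7 lower and 3 higher in CDd14, against 44.9% of all genes (22.8% lower, 22.1% higher). A share near that of all genes does not set these genes apart.

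SREBF1 had 10.94, 10.92 and 10.64 in CDd14 against 12.83, 12.65 and 11.72 in CDd7, with no overlap. It fell 2.96-fold (log2 difference -1.57 ± 0.37, limma adjusted p = 0.0160). Its second probe set fell 2.71-fold (limma adjusted p = 0.0184). In NPd14 it had 11.16, 11.85 and 10.86 against 11.38, 12.27 and 11.14 in NPd7, overlapping, with a log2 difference of -0.31 ± 0.37 (limma adjusted p = 0.729).

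INSIG2 had 11.47, 11.55 and 11.42 in CDd14 against 10.95, 10.53 and 11.01 in CDd7, without overlap, and rose 1.57-fold (0.65 ± 0.20, limma adjusted p = 0.0429). Its other kept probe sets went the same way and did not pass, at 0.57 ± 0.23 and 0.36 ± 0.19 (limma adjusted p = 0.0967 and 0.180). INSIG1, a direct target of SREBPs, had 13.05, 12.47 and 12.81 in CDd14 against 12.66, 12.52 and 12.49 in CDd7, with overlap and a difference of 0.22 ± 0.19 (limma adjusted p = 0.402). SREBF2 differed by 0.12 (95% interval -0.13 to 0.37).

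In the sterol branch, NSDHL, which helps strip methyl groups from the sterol ring, had 9.44, 8.89 and 8.77 in CDd14 against 10.45, 10.48 and 9.39 in CDd7. The groups overlapped in CDd7 pool 3, and the gene fell 2.10-fold at the edge of the threshold (-1.07 ± 0.35, limma adjusted p = 0.0495). SOAT1, which esterifies cholesterol for storage, had 11.62, 10.28 and 10.31 in CDd14 against 9.09, 8.77 and 8.68 in CDd7. Its groups were well apart and it rose 3.70-fold (1.89 ± 0.51, limma adjusted p = 0.0245). In NPd14 SOAT1 had 10.48, 11.39 and 9.18 against 9.20, 9.38 and 9.06 in NPd7, where pool 3 of NPd14 lay inside the NPd7 range (1.14 ± 0.51, limma adjusted p = 0.302).

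On their chosen probe sets, the other 13 sterol genes had log2 differences between -0.66 and 0.38 by day in CD. MVD, mevalonate diphosphate decarboxylase, had -0.43 ± 0.17 (limma adjusted p = 0.0887), and FDPS, which builds farnesyl diphosphate, -0.66 ± 0.31 (limma adjusted p = 0.143); neither overlapped. SQLE had 0.16 (95% interval -0.24 to 0.56), CYP51A1 0.00 (-0.56 to 0.56) and HMGCS1 0.35 (-0.02 to 0.72). The second kept probe set of FDFT1 had -2.09 ± 0.71 (limma adjusted p = 0.0572), against -0.38 ± 0.21 on the first (limma adjusted p = 0.197). The second was much dimmer, with a mean of 5.34 in CDd14. The interval lay within a 2-fold difference for 11 of 15 sterol genes and 5 of 11 fatty acid genes.

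In the fatty acid branch, ACSS2, which turns acetate into cytosolic acetyl-CoA, had 10.38, 10.13 and 10.18 in CDd14 against 11.29, 11.13 and 10.59 in CDd7. The groups did not overlap, and it fell 1.71-fold (-0.78 ± 0.25, limma adjusted p = 0.0443). ACLY, which takes the same product from citrate, differed by -0.02 (95% interval -0.28 to 0.25). ELOVL5 had 10.64, 10.99 and 10.64 in CDd14 against 12.32, 11.75 and 11.33 in CDd7, without overlap, and fell 2.06-fold (-1.04 ± 0.26, limma adjusted p = 0.0202).

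ACSL3 had 12.27, 11.97 and 12.51 in CDd14 against 13.20, 13.20 and 12.69 in CDd7, without overlap, and fell 1.72-fold (-0.78 ± 0.21, limma adjusted p = 0.0273). Its other kept probe sets fell further, 4.45-fold and 2.79-fold (limma adjusted p = 0.00618 and 0.00578), so that the size of the fall depends on the probe set. SCD had -0.78 ± 0.36 (limma adjusted p = 0.141) and FASN -0.15 ± 0.29 (limma adjusted p = 0.737).

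PLIN2 had 10.03, 9.03 and 8.92 in CDd14 against 11.26, 11.19 and 9.94 in CDd7, with overlap between CDd14 pool 1 and CDd7 pool 3. Its log2 difference of -1.47 ± 0.49 was just short of the threshold (limma adjusted p = 0.0530). GPAM went the other way without overlap, 0.71 ± 0.31 (limma adjusted p = 0.113).

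**Figure D4:**
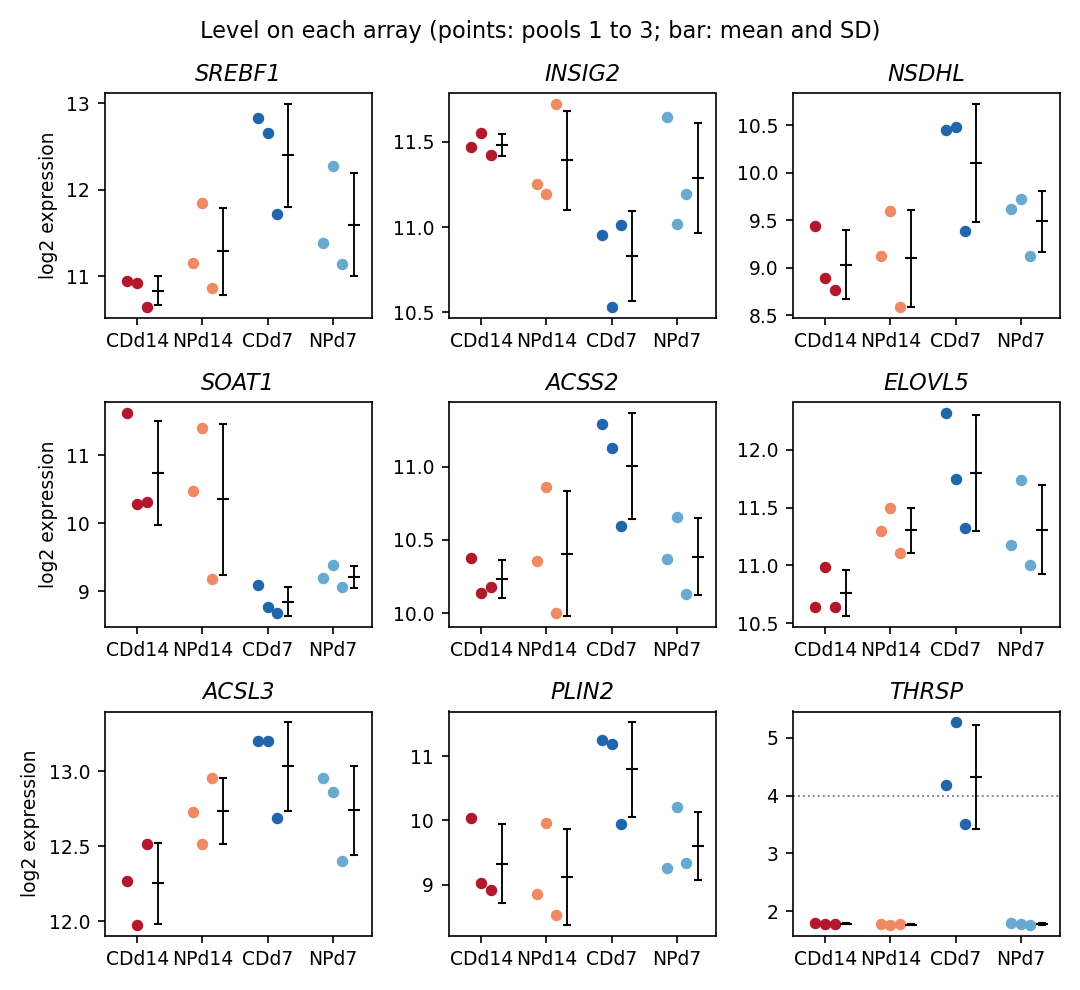
Points are the log2 levels on each array, with the group mean and SD beside them, for the 7 genes that changed between days in CD and for PLIN2 and THRSP. The group means of SREBF1, NSDHL, ELOVL5, ACSS2, ACSL3 and PLIN2 are highest in CDd7, those of INSIG2 and SOAT1 are lowest there, and the dotted line in the THRSP panel is the filter at 4.

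The calls between days in CD rested on few arrays. The count of 7 was 0 without CDd7 pool 2 (9.62% of all genes called), 1 without CDd7 pool 1 (SOAT1), 2 without CDd14 pool 1 (SREBF1 and PLIN2) or pool 3 (ACSL3 and SOAT1), and 3 without CDd14 pool 2 (SREBF1, ELOVL5 and SOAT1). It was 4 without NPd14 pool 1 or NPd7 pool 3, which enter through the spread shared by the 4 groups. Without CDd7 pool 3 it was 8, and SOAT1 no longer passed. With no filter it was 3 of 40, SREBF1, ELOVL5 and THRSP. The signs of the 7 held in each of these fits, with SREBF1 between -1.91 and -1.35, SOAT1 between 1.44 and 2.11 and ELOVL5 between -1.28 and -0.78 when any 1 array was left out. Between the same days, 4 of 7 measured cell cycle genes fell, 3 of 14 epithelial markers rose, the 3' to 5' difference was higher in CDd14 by 0.32 (0.39 on the added transcripts), and ADIPOR2 fell. CLDN5, the 1 endothelial marker above the filter, fell to between 1.66 and 2.05 in CDd14, where its log2 difference of -4.48 rests on background. Also between these days, 2 of 12 stromal markers rose, and 1 of 8 T and NK cell markers rose with all 8 above 0. Of all genes, 9.87% rose and 14.2% fell between these days. The part of these markers and of the 3' to 5' difference in the calls was not tested.

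In heifers without a pregnancy, none of the 35 genes passed between days (limma), against 0.133% of all genes (0.059% up, 0.0737% down), with 4 of 35 at an unadjusted p under 0.05 and 1116 of 6781 overall. Groups did not overlap for 3 genes, all higher in NPd14, against 22.6% of all genes, or 7.33% counting the higher ones alone. SREBF2 had 8.06, 8.15 and 7.95 in NPd14 against 7.71, 7.83 and 7.69 in NPd7, a difference of 0.31 ± 0.11 (limma adjusted p = 0.220). HMGCS1 had 14.27, 14.40 and 14.13 in NPd14 against 13.98, 14.01 and 13.67 in NPd7, a difference of 0.38 ± 0.17 (limma adjusted p = 0.301). The third was ACSL1, another long-chain acyl-CoA synthetase (0.38 ± 0.16, limma adjusted p = 0.275).

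Same-numbered NPd14 and NPd7 pools deviated together, with correlations of 0.16, 0.62 and 0.51 across probe sets. Same-numbered CDd7 and NPd7 pools, which differ in outcome, had -0.03, 0.36 and 0.27. Whether paired pools hold the same heifers is not given, and the pairing used next was chosen after these correlations were seen. With the pool number as a block on the NP arrays alone, none of the 35 genes passed either (limma), and 0% of all genes did, while 8 of 35 had an unadjusted p under 0.05 against 1412 of 6781. Within pairs, SREBF1 was lower in NPd14 in 3 of 3, by -0.23, -0.43 and -0.27 (-0.31 ± 0.12, limma adjusted p = 0.243). FASN was higher in NPd14 in 3 of 3, by 0.61, 0.55 and 0.31 (0.49 ± 0.13, limma adjusted p = 0.164). With the same sign as in CD, NSDHL (-0.39 ± 0.14, limma adjusted p = 0.234) and PLIN2 (-0.48 ± 0.16, limma adjusted p = 0.209) were lower in 3 of 3. SOAT1 was higher in 3 of 3 (1.14 ± 0.39, limma adjusted p = 0.217). INSIG2, ACSS2, ELOVL5 and ACSL3, which passed in CD, had mixed signs over the pairs. The differences had the same sign in all 3 pairs for 18 of 35 genes and 3340 of 6781.

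Whether the day effect differed between outcomes was tested as an interaction. None of the 35 genes passed (limma), as none of all genes did (0%), and 4 of 35 had an unadjusted p under 0.05 against 980 of 6781. These were ELOVL5 (-1.03 ± 0.37, limma adjusted p = 0.305), ACSL3 (-0.77 ± 0.30, limma adjusted p = 0.319), SREBF1 (-1.26 ± 0.53, limma adjusted p = 0.331) and ACSS2 (-0.80 ± 0.35, limma adjusted p = 0.341). All 4 also passed between days in CD, and both contrasts use the same CD arrays. For SOAT1, with 0.75 and a 95% interval from -0.84 to 2.34, a difference in either direction was within the error.

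**Figure D5:**
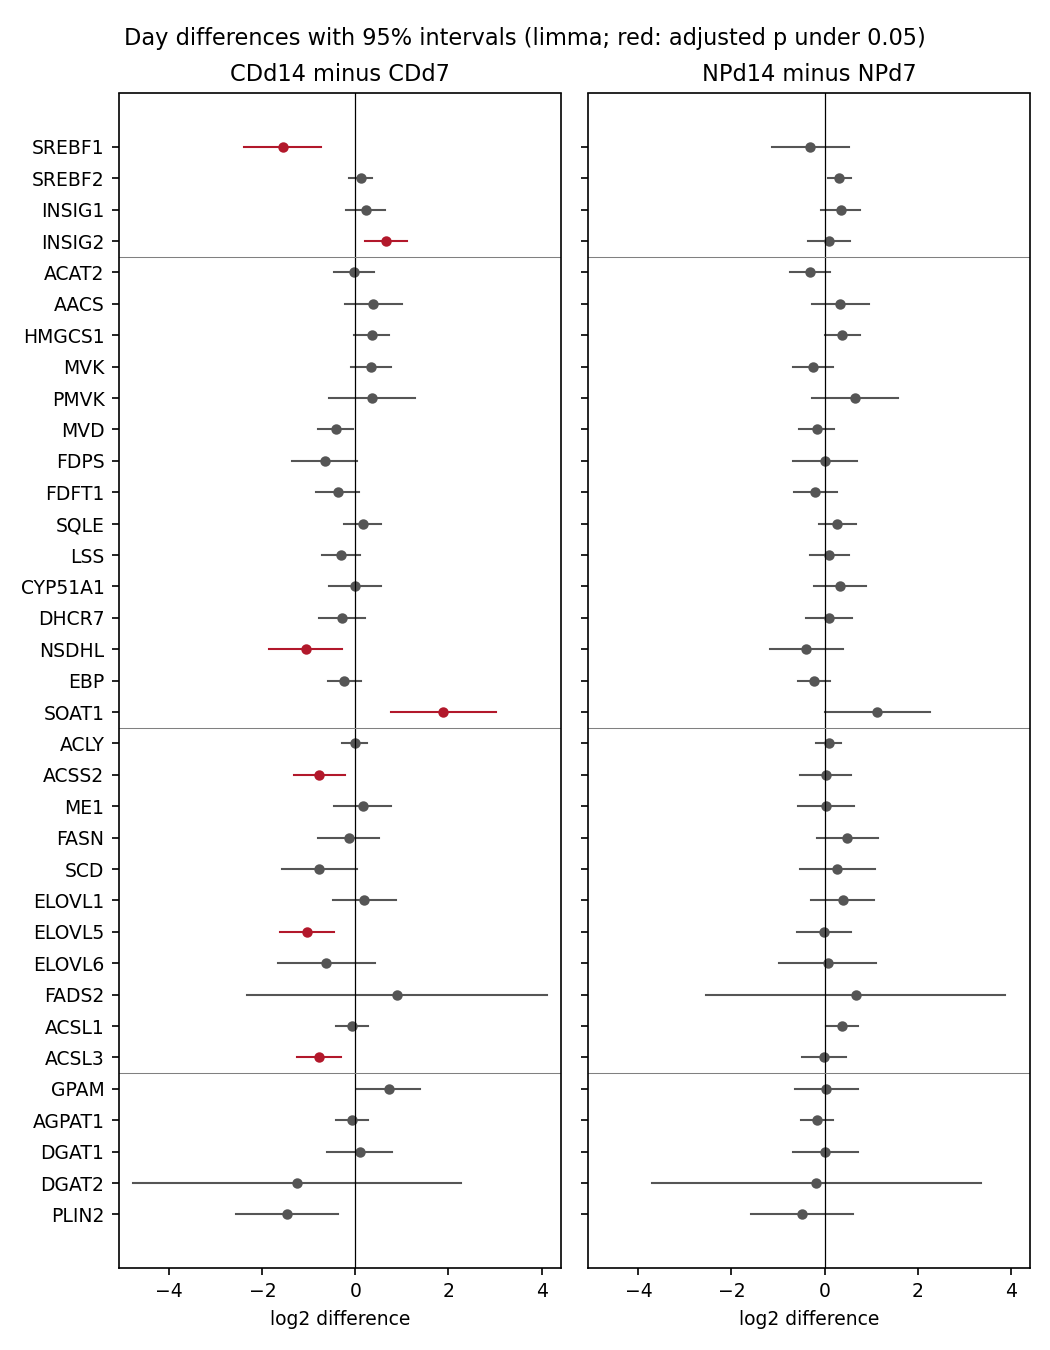
Each point is a gene's log2 difference between days, CDd14 minus CDd7 on the left and NPd14 minus NPd7 on the right, with its 95% interval; red marks an adjusted p under 0.05. The 7 red genes are all on the left, and the test of the difference between the sides called none of them.

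Of 64 further genes of the same pathways, 33 were kept, 14 around the sterol branch and 19 around the fatty acid and triglyceride branch. By outcome none of the 33 passed on either day (limma). At an unadjusted p under 0.05 there were 13 of 33 at day 7, against 2062 of all 6781 genes, and 1 of 33 at day 14, against 430. Between days in CD, 1 of the 14 rose and 2 fell, and 3 of the 19 rose and 4 fell, 21.4% and 36.8% of the lists, where 24.1% of all genes changed (9.87% up, 14.2% down).

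SLC25A1, which exports citrate from mitochondria for lipid synthesis, had 10.33, 10.27 and 10.38 in CDd14 against 11.69, 11.64 and 11.34 in CDd7, and fell 2.35-fold (limma adjusted p = 0.00727). TECR, which completes each round of chain lengthening, had 9.74, 9.98 and 9.81 in CDd14 against 10.89, 11.20 and 10.65 in CDd7, and fell 2.10-fold (limma adjusted p = 0.00887). Both were well apart between the groups.

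MOGAT1, which makes diacylglycerol from monoacylglycerol, had 4.02, 3.90 and 3.66 in CDd14 against 8.40, 6.98 and 5.46 in CDd7. It fell 8.50-fold (limma adjusted p = 0.00996), to a level at the filter where the fold rests on background. GPAT3, which starts glycerolipid synthesis in the endoplasmic reticulum, had 7.40, 8.01 and 7.71 in CDd14 against 5.94, 5.70 and 6.68 in CDd7, and rose 3.03-fold (limma adjusted p = 0.0115). The remaining genes past the threshold, named after their values were seen, were the elongase ELOVL7, the sterol reductase TM7SF2 and the SREBP-cleaving protease MBTPS1, which fell, and ACSL5, AGPAT5 and the ubiquitin ligase MYLIP, which rose. In NP 0 of the 33 passed between days (limma), and 4 had an unadjusted p under 0.05, against 1116 of 6781. Of these, SLC25A1 (-0.57 ± 0.23), TECR (-0.53 ± 0.22) and AGPAT5 (0.65 ± 0.22) had the same sign as in CD. The fourth, MLYCD, had -0.34 ± 0.12 in NP and 0.37 ± 0.12 in CD. MOGAT1 was also lower in NPd14 without overlap (-1.30 ± 0.65, limma adjusted p = 0.349).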

How the data were processed

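The authors deposited 1 table of log2 expression values for 24128 probe sets on 12 bovine Affymetrix arrays. Per the submitters' processing notes the values come from GCRMA, a method that removes background by probe sequence, normalizes and summarises probes, and limma was used; the sources used here give no versions. Dim probe sets are drawn to a floor by it, so that folds from dim levels are unreliable. Total RNA of pools was amplified and biotin-labelled, per the labels' protocols.

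Here 112 control probe sets were left out, and 13449 of 24016 others passed the filter (log2 above 4 on at least 3 arrays). Group means of all 12 arrays were fitted with limma 3.58.1 in R 4.3.3 (8 residual degrees of freedom, default eBayes), with 5 contrasts and Benjamini-Hochberg adjustment over the 13449 (threshold 0.05, two-sided). Gene names come from the platform annotation, updated through gene identifiers. The scripts were tested on simulated data. The number of arrays limits the precision. Groups came from the labels; for 1 CDd14 array, whose title repeats another's name, the stated replicate was used. Genes past the threshold, the regulators, a fixed set of enzymes, and genes whose probe sets differ in sign or call were named, with up to 4 related genes a contrast; others appear in comparisons of neighbouring steps. The members and lists were chosen with earlier results of these data known. Alternatives were another filter, quantile normalization, averaged probe sets, eBayes with a trend and robust, pool number as block, the compared groups alone and each array left out.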

Additional observations from a re-analysis of the deposited data

How the results depend on the processing

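The counts by outcome at day 14, between days in NP and for the interaction stayed at 0 in every alternative run; for the interaction, which needs all 4 groups, the compared groups alone were not a separate setting. By outcome at day 7 the count of 0 was 1 with no filter (THRSP) and 1 with the pool number as a replicate block (MVK, with 10.5% of all genes called), and it ranged from 0 to 1 when each array was left out. The MVK call came without CDd7 pool 3 or NPd7 pool 2. Between days in CD the count of 7 was 3 with no filter and ranged from 0 to 9 when each array was left out, with 9.62% to 27.6% of all genes called. Under the other 6 settings it was 6 to 9, the highest with the replicate block, which kept all 7 and added PLIN2 and GPAM. None of the 7 genes changed sign in any alternative. With no filter 5 of the 7 lost their call, with the compared groups alone NSDHL and ACSL3 did, and with probe sets averaged per gene INSIG2 did. ACSL3 had -1.47 when averaged, against -0.78. Leaving out an array takes 1 of 3 pools from a group, and no filter adjusts over 24016 probe sets; the causes were otherwise not tested. Dim genes such as DGAT1, THRSP and MOGAT1 are limited by signal over background. Same-numbered pools deviated together (r over 0.1) in all 3 pairs for NPd14 with NPd7, and each was closest to its own number; the 5 other group pairings had 0 to 2 such pairs of 3 and were not taken as paired. A replicate block on the NP arrays alone, chosen after seeing the data, gave 0 of 35.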
